A study of Mus musculus with 9 samples.

Results

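Border-associated macrophages are the resident macrophages of the brain's meninges, choroid plexus and perivascular spaces, outside the parenchyma in which microglia live. They were selected here by transcript counts in single-cell RNA-seq libraries of CD11b-sorted mouse brain cells, as barcodes with at least 1 UMI (unique molecular identifier, 1 counted transcript) in 3 or more of Mrc1, Pf4, Cbr2, Cd163, Lyve1 and Ms4a7 and with S100a8 and S100a9 below 1% of UMIs. Barcodes were kept beforehand at 500 to 20000 UMIs, at least 200 genes and up to 10% mitochondrial UMIs. The gate held 375 of 30463 kept barcodes, 344 of them in control brains, 15 in D0 and 16 in D2. The values that chose these barcodes are given below as a description.

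The study followed microglia through depletion by PLX5622, a small-molecule inhibitor of the CSF1 receptor (CSF1R), and their return after withdrawal. All animals were female C57BL/6J mice of 5 months with no transgene. Ctrl mice ate control diet, D0 mice ate diet with 1200 mg of PLX5622 per kg for 14 days, and D2 mice ate that diet for 14 days and then control diet for 2 days. Each group had 3 libraries, from 1 brain each in Ctrl and from 2 pooled brains each in D0 and D2, so a treated library averages over animals. Brains were perfused with PBS, the cerebellum was removed, and the tissue was digested with collagenase and dispase at 37 °C, depleted of myelin and sorted for live CD11b+ cells before 10x 3′ library preparation. No library was made from dissected meninges or choroid plexus, so the anatomical origin of a gated cell is unknown. The files held 2875 to 5721 barcodes and 20257894 to 61230741 UMIs per library.

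Macrophages of the brain borders are known for the mannose receptor (Mrc1), for scavenger receptors, and for antigen presentation by a subset that carries MHC class II. MHC class II molecules are pairs of an alpha and a beta chain that display peptides from engulfed material to CD4+ T cells, and their genes are switched on by the transactivator CIITA. Microglia and border-associated macrophages both express CSF1R, the receptor whose signal most tissue macrophages need to survive.

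The gate genes are given first as a description of the gate, which required 3 of them. Mrc1, an endocytic lectin, was present in 324 of 344 gated control barcodes, Pf4, a chemokine, in 337, and Ms4a7, a membrane protein of macrophages, in 296. Cbr2, a carbonyl reductase, was present in 218, the hemoglobin scavenger receptor Cd163 in 153 and the hyaluronan receptor Lyve1 in 62. Over the summed gated UMIs, Mrc1 stood at 1263, 684 and 1033 CPM (its UMIs scaled to the summed UMIs of the class, in the usual CPM unit) in Ctrl-1, Ctrl-2 and Ctrl-3, the order used for all sets of 3 control values below. It stood at 6.48, 4.10 and 4.36 CPM in microglia, defined as kept barcodes with at least 4 of 8 microglial genes and at most 1 gate gene, a limit that itself keeps the level low. Neutrophils and endothelial cells of the control libraries held no Mrc1 or Pf4 UMI.

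The label was checked with genes the gate did not use, and the control gate held a mixture of transcript profiles. The UMIs of P2ry12, Tmem119, Siglech, Sall1 and Gpr34, 5 genes typical of microglia, were distributed with a low and a high peak over the 344 barcodes. Of these, 60 had under 5 such UMIs per 10000, 58 had 5 to 10, 22 had 10 to 20, 20 had 20 to 30, 30 had 30 to 40, and 154 had 40 or more. The microglial transcription factor Sall1 had a UMI in 161 barcodes of the gate. At a limit of 20 per 10000, set after these values were seen, 76, 17 and 47 barcodes were microglia-poor and 61, 42 and 101 were microglia-rich. The microglia-rich share of the gate was thus 44.5, 71.2 and 68.2% in Ctrl-1, Ctrl-2 and Ctrl-3.

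**Figure D1:**
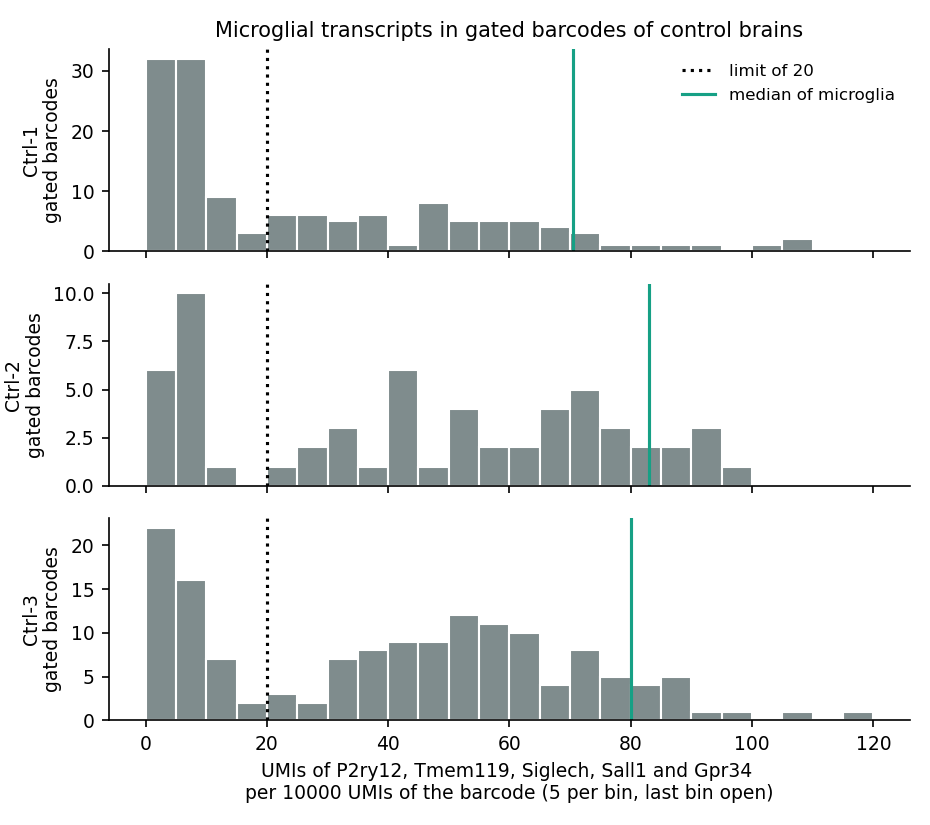
Number of gated control barcodes (y axis) by UMIs of 5 microglial genes per 10000 UMIs (x axis, bins of 5), 1 panel per library. In each library the barcodes fall into a low group and a high group, with 140 of 344 below 20 per 10000.

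The microglia-rich barcodes carried the transcripts of both cell types. P2ry12, a purinergic receptor of microglia, stood at 1671, 2126 and 2119 CPM in microglia-rich barcodes and at 2379, 2954 and 2915 CPM in microglia, against 141, 186 and 165 CPM in microglia-poor barcodes. In endothelial cells of the same libraries, which should lack the gene, it stood at 120, 339 and 229 CPM. Per barcode, however, the 5 microglial genes had a median of 5.74, 6.02 and 5.38 UMIs per 10000 in microglia-poor barcodes and of 0, 0.257 and 0 in endothelial cells, so that microglia-poor barcodes were not free of microglial transcripts. Mrc1 went the other way, with 2106, 1314 and 2018 CPM in microglia-poor and 766, 537 and 865 CPM in microglia-rich barcodes. Median depth was 6204.5, 6004 and 3739 UMIs in microglia-poor, 13658, 11006.5 and 11263 UMIs in microglia-rich barcodes and 6668, 7814 and 6409 UMIs in microglia. Doublets were not removed, and the part of doublets or shared droplets in the microglia-rich barcodes was not tested. Each result below is therefore given for the whole gate and, where it bears on microglial genes, without the microglia-rich barcodes.

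Transcripts of further cell types were measured in the control gate. The neutrophil list summed to 6.75, 8.41 and 5.27 CPM with 4 of its 6 genes at 0, and the endothelial list to 12.7, 48.8 and 21.1 CPM. The dendritic cell list summed to 228, 140 and 169 CPM with Clec9a and Ccr7 at 0, and Cd209a was its most abundant gene at a mean of 133 CPM. The classical monocyte list summed to 177, 197 and 40.7 CPM with Chil3 at 0, and Ccr2 was its most abundant gene at a mean of 104 CPM. In microglia-poor barcodes the dendritic cell list summed to 441, 79.9 and 253 CPM and the classical monocyte list to 189, 559 and 181 CPM. Astroglial genes summed to 70.8, 106 and 82.8 CPM in the gate, 9.09, 26.6 and 10.3 CPM in microglia-poor barcodes and 166, 181 and 166 CPM in microglia.

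The gates of 2 treated libraries stood apart. The 9 gated barcodes of D2-3 held no UMI of Cd163 or Folr2, which the gates of the other treated libraries carried, but 111 UMIs of the monocyte chemokine receptor Ccr2 (820 CPM) and 138 UMIs of Pf4 (1020.0 CPM). The gate of D2-3 also held no UMI of Lyve1 or Cd209f, as did some of the other treated gates. Apoe stood at 1781 CPM in these 9 barcodes and at 27171 and 25675 CPM in the gates of D2-1 and D2-2. The study left this library out of its single-cell analysis. Its values are given below, and D2 group values use D2-1 and D2-2 unless stated.

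The 6 gated barcodes of D0-2 carried less of the macrophage list and more of the dendritic cell and monocyte lists than those of D0-1 and D0-3. Their macrophage list of 13 genes summed to 3048 CPM, against 4640 CPM in D0-1, 6441 CPM in D0-3 and 4526 to 7157 CPM in Ctrl. The dendritic cell list summed to 787 CPM in D0-2 against 80.01 and 109 CPM in D0-1 and D0-3, and the classical monocyte list to 506 CPM against 0 and 21.8 CPM. D0-2 stayed in the D0 group, and the values without it are given where they differ.

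Among the genes that most separated microglia-poor border-associated macrophages from microglia in control brains were chemokine, lectin, lipid transport and MHC class II genes. This is a description, since the cells were chosen by some of these genes. Pf4 was the farthest apart, with a log2 difference of 7.72 (range over libraries 7.46 to 7.91, computed with 10 CPM added), followed by Mrc1 at 6.90 and Apoe at 6.00. Apoe, the apolipoprotein that carries cholesterol, reached 40499, 46616 and 54384 CPM in microglia-poor barcodes against 788, 667 and 710 CPM in microglia. Dab2, an endocytic adaptor, stood apart by 5.63, the transglutaminase gene F13a1 by 5.40, the lectins Mgl2 and Clec10a by 5.10 and 4.82, Cd209f by 5.05 and the folate receptor Folr2 by 4.52. The class II genes H2-Aa, H2-Eb1, H2-Ab1 and Cd74 stood apart by 5.88, 5.87, 5.66 and 5.46. Further genes among the 20 largest differences were Ms4a7 (5.92), Cbr2 (5.16), Wfdc17 (5.04), Lgals1 (4.99), Cd163 (4.38), Ifitm2 (4.37) and Ifi203 (4.33).

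At the other end, the fructose transporter gene Slc2a5 (−4.52), Sparc (−4.27), Golm1 (−4.20), Sall1 (−4.15), Adgrg1 (−4.00) and P2ry12 (−3.99) were the lowest relative to microglia. The complement gene C1qa stood at 7629, 8585 and 8290 CPM in microglia-poor barcodes and at 9084, 10362 and 10886 CPM in microglia. Csf1r, the target of the drug, was lower in microglia-poor barcodes of each library and stood at 1347, 1483 and 1765 CPM and at 2577, 3407 and 3281 CPM, respectively.

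The first comparison asked how many gated cells remained under CSF1R inhibition. Gated barcodes made up 3.21, 2.29 and 4.0% of kept barcodes in Ctrl-1, Ctrl-2 and Ctrl-3 (Wilson 95% intervals 2.73 to 3.79, 1.78 to 2.94 and 3.42 to 4.68%). They made up 0.121, 0.120 and 0.152% in D0-1, D0-2 and D0-3 (0.0515 to 0.282, 0.0552 to 0.263 and 0.0590 to 0.389%). In D2-1 and D2-2 the share was 0.102 and 0.124% (0.0395 to 0.261 and 0.0422 to 0.364%), and in D2-3 it was 0.498% (0.262 to 0.943%). No treated library overlapped a control library. The intervals cover counting error only.

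The mean share was 3.17% ± 0.857 (SD, n = 3) in Ctrl and 0.131% ± 0.0180 (SD, n = 3) in D0, a difference of −3.04 percentage points (exact permutation test, two-sided, p = 0.1, the smallest that 3 against 3 libraries allow). In D2 the mean was 0.113% ± 0.0159 (SD, n = 2), a difference of −3.06 points (exact permutation test, p = 0.2, the smallest that 3 against 2 allow). Neither comparison could pass 0.05. With D2-3 the D2 mean was 0.241% ± 0.223 (SD, n = 3) and the difference −2.93 points (exact permutation test, p = 0.1). D0 and D2 were set against the same control libraries.

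Kept barcodes also include microglia, which the drug removes, and leukocytes, so a share depends on how many of these were recovered. Relative to 1000 microglia, gated barcodes numbered 35.6, 26.0 and 44.2 in Ctrl, 1.44, 1.49 and 2.02 in D0, 1.23 and 1.70 in D2-1 and D2-2 and 9.96 in D2-3. The number of cells per brain cannot be read from these libraries. After thinning barcodes to 2000 UMIs, with 114 to 684 shallower barcodes per library left out, the mean shares of those thinned were 1.49% in Ctrl, 0.0611% in D0 and 0.0554% in D2. Among microglia-poor barcodes the shares were 1.78, 0.660 and 1.27% in Ctrl, 0.0723, 0.0602 and 0.114% in D0 and 0.102 and 0.124% in D2-1 and D2-2. In D2-3 it was 0.498%, against 0.660% in Ctrl-2. At the threshold of the gate, barcodes with exactly 3 of the 6 genes numbered 58, 27 and 52 in Ctrl, 3, 3 and 1 in D0 and 1, 1 and 8 in D2. Those with exactly 2, just outside it, numbered 49, 24 and 34 in Ctrl, 25, 29 and 21 in D0 and 14, 19 and 11 in D2.

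**Figure D2:**
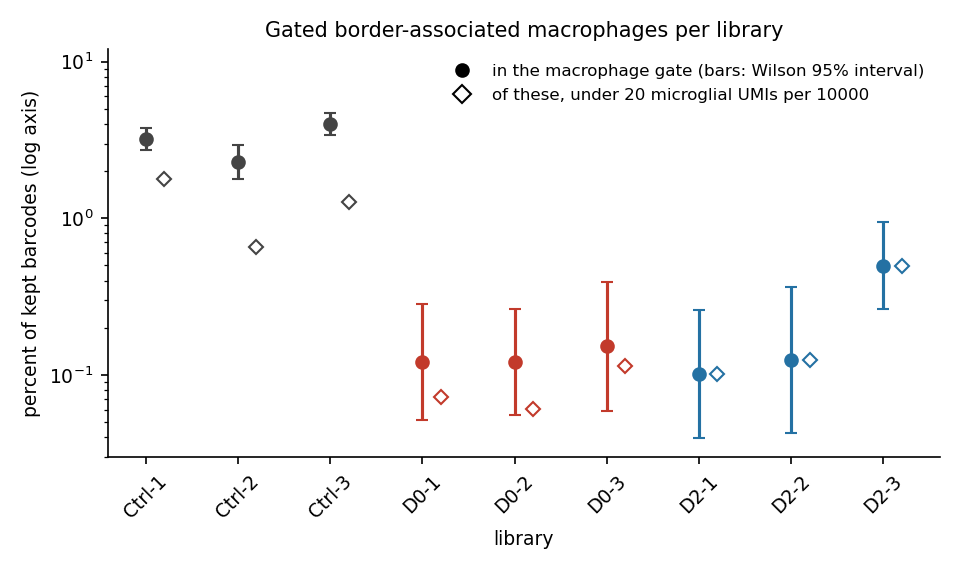
Gated barcodes as percent of kept barcodes on a log axis, by library, with Wilson 95% intervals (filled) and, without interval, the microglia-poor barcodes among them (open). Control libraries lie between 2.29 and 4.0%, D0 libraries between 0.120 and 0.152%, D2-1 and D2-2 at 0.102 and 0.124%, and D2-3 at 0.498%.

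The same question was put without the gate, by summing the UMIs of all kept barcodes of a library. In such sums fewer cells of a type and less RNA per cell cannot be told apart. In Ctrl the levels of the gate genes rest mostly on the UMIs that set the share above and are not independent of it. The gate held 83.2, 70.2 and 89.1% of the Mrc1 UMIs of kept barcodes in Ctrl and 5.90, 4.79 and 11.3% in D0. For Pf4 it held 95.3, 86.6 and 94.3% in Ctrl and 31.3, 22.5 and 63.4% in D0. In D2-1 and D2-2 it held 5.95 and 9.64% of the Mrc1 UMIs and 24.1 and 64.0% of the Pf4 UMIs, and in D2-3 42.5 and 59.5%. In the treated libraries most Mrc1 UMIs thus lay outside the gate, while for Pf4 the gate held more than it left out in D0-3, D2-2 and D2-3. In edgeR's quasi-likelihood test, 7.4% of 14310 genes were lower and 8.15% higher in D0 than in Ctrl, and of 7 macrophage markers that the gate did not use 4 were lower (Cd209f, Stab1, Maf and Dab2) and none higher. In D2, 7.83% of the genes were lower and 7.47% higher, and of the 7 markers 3 were lower (Cd209f, Stab1 and Maf) and 1 was higher (Clec10a). None of the 7 was called between D2 and D0. The number of all genes called depended on the libraries and terms in the fit. In D0 1059 genes were lower and 1166 higher, against 49 and 357 with D2-3, 135 and 392 with a term for the Cell Ranger release, 185 and 545 without Ctrl-3, 282 and 770 without Ctrl-2, 338 and 795 without D0-2 and 380 and 761 without D0-3. In D2 1121 were lower and 1069 higher, against 714 and 1126 with D2-3, 252 and 401 with the release term, 349 and 562 without Ctrl-3, 392 and 654 without Ctrl-2, 480 and 666 without D2-1 and 142 and 317 without D2-2.

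Pf4 stood at 60.5, 30.2 and 62.8 CPM of all kept UMIs in Ctrl, at 2.12, 1.59 and 3.31 CPM in D0 and at 1.27 and 3.04 CPM in D2-1 and D2-2. The log2 difference was −4.34 (SE 0.41) in D0 and −4.56 in D2. Mrc1 stood at 59.8, 27.0 and 55.7 CPM in Ctrl, at 12.7, 10.3 and 13.6 CPM in D0 and at 11.8 and 22.0 CPM in D2-1 and D2-2. The log2 difference was −1.83 (SE 0.32) in D0 and −1.45 in D2. For both genes the treated and control libraries did not overlap. Cbr2, Cd163, Lyve1 and Ms4a7 differed by −2.65, −2.16, −2.53 and −1.24 in D0. These are gate genes and are given without a test.

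Among markers the gate did not use, the lectin gene Cd209f stood at 7.64, 7.72 and 11.8 CPM in Ctrl, at 0, 0.0223 and 0.202 CPM in D0 and at 0.0875 and 0 CPM in D2-1 and D2-2. Its fall passed the edgeR test in D0 (adjusted p = 0.000905) and in D2 (adjusted p = 0.00229). The scavenger receptor gene Stab1 fell by 1.00 in D0 (edgeR adjusted p = 0.00269) and by 1.21 in D2, and the transcription factor gene Maf by 1.12 in D0 (adjusted p = 0.00900) and by 1.31 in D2. Stab1 and Maf were also carried by microglia, in which Maf stood at 686, 637 and 637 CPM in Ctrl and at 363, 257 and 282 CPM in D0. Dab2 fell by 0.95 in D0 (edgeR adjusted p = 0.0425). Under at least 1 of the other settings the calls in D0 of Stab1, Maf and Dab2 were lost, with edgeR adjusted p up to 0.152, 0.237 and 0.238, while Cd209f stayed under 0.05 in D0 in each setting run. In D2 the calls of Maf and Clec10a were lost under at least 1 setting, with adjusted p up to 0.0682 and 0.222. Not called in D0 were Folr2 (−1.05, edgeR adjusted p = 0.146), F13a1 (−0.48, adjusted p = 0.42) and Clec10a (1.18, adjusted p = 0.0551). Clec10a rose by 1.62 in D2 (edgeR adjusted p = 0.0267). In dendritic cells, which also carry Clec10a, it stood at 215, 274 and 107 CPM in Ctrl and at 510 and 432 CPM in D2-1 and D2-2, and the part of dendritic cells in its rise was not tested.

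**Figure D3:**
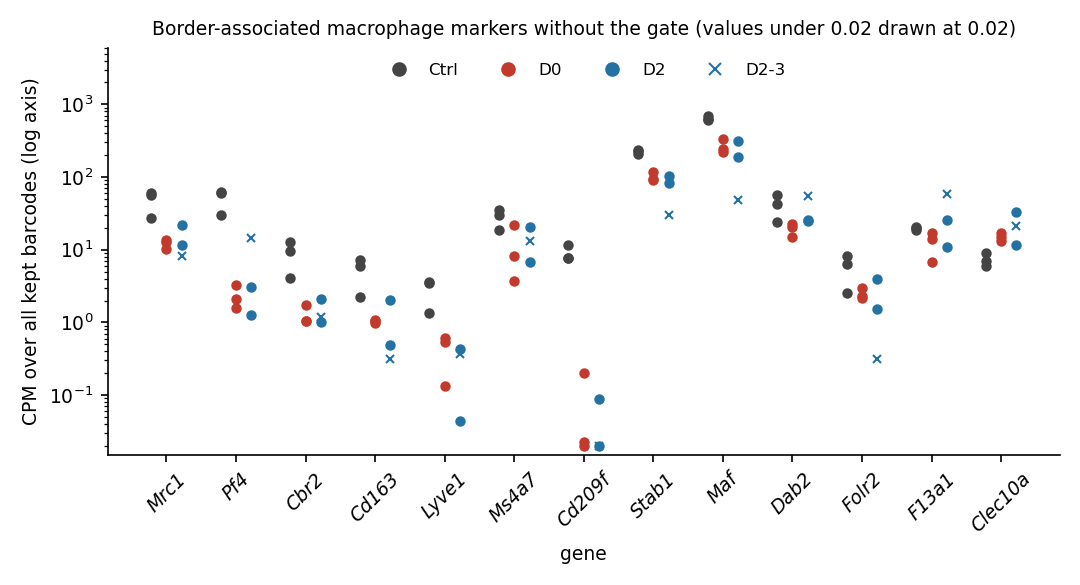
CPM of 13 macrophage markers over the summed UMIs of all kept barcodes (log axis, values below 0.02 drawn at 0.02), 1 point per library. Pf4 lies at 30.2 to 62.8 CPM in Ctrl and at 1.59 to 3.31 CPM in D0, while Clec10a lies higher in D0 and D2 than in Ctrl.

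The gated control barcodes were next split by MHC class II. UMIs of H2-Aa, H2-Ab1 and H2-Eb1, which encode the chains of the class II molecules I-A and I-E, made up under 1 per 10000 in 208 of 344 barcodes and 200 or more per 10000 in 44. Barcodes with at least 20 per 10000 were called H2-high (43, 14 and 30, together 87) and those with under 5 per 10000 H2-low (88, 42 and 111, together 241). The other 16 were left out of the comparison. Few barcodes lay near the limits, with 23 between 5 and 40 per 10000. H2-Aa stood at 6233, 10402 and 7708 CPM in H2-high and at 17.4, 21.2 and 5.83 CPM in H2-low barcodes, which describes the split and is not a finding.

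**Figure D4:**
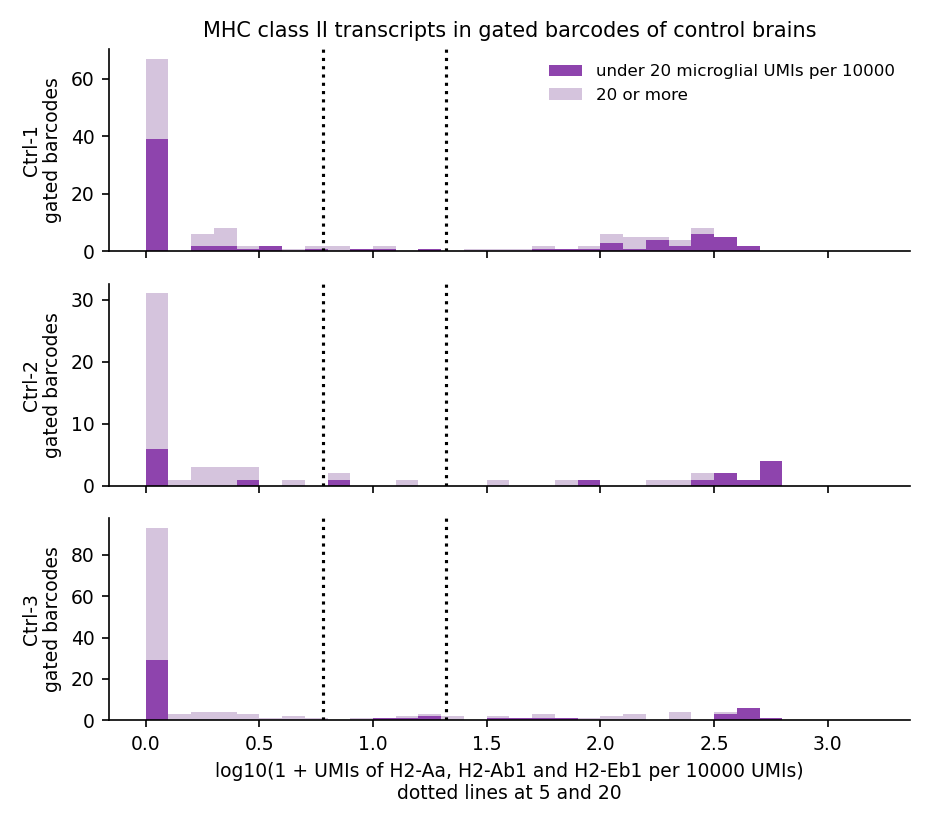
Number of gated control barcodes (y axis) by UMIs of H2-Aa, H2-Ab1 and H2-Eb1 per 10000 UMIs (x axis, log10 of 1 plus the value), 1 panel per library, with dotted lines at the limits of 5 and 20. H2-low barcodes (88, 42 and 111) and H2-high barcodes (43, 14 and 30) form separate groups, and both hold microglia-poor (dark) and microglia-rich (light) barcodes.

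The class II genes lie together on chromosome 17 (GRCm38), with H2-Ab1 at chr17:34257689-34269419, H2-Aa at chr17:34282744-34287823 on the minus strand and H2-Eb1 at chr17:34305867-34316674. Promoters of this group are shown because these genes define the split. Class II promoters are known to carry an inverted CCAAT element, the Y box. The RefSeq windows (GRCm38.p6) from 250 bases before to 50 after the start are chr17:34287774-34288073, minus strand, for H2-Aa and chr17:34305617-34305916, plus strand, for H2-Eb1, with CTGATTGG and CCAAT in capitals.
H2-Aa: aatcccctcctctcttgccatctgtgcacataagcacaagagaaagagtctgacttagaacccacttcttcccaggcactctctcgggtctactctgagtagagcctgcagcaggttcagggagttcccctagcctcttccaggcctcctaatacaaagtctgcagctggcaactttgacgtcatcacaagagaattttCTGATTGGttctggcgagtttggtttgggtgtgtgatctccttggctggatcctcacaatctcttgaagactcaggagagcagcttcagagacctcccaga
H2-Eb1: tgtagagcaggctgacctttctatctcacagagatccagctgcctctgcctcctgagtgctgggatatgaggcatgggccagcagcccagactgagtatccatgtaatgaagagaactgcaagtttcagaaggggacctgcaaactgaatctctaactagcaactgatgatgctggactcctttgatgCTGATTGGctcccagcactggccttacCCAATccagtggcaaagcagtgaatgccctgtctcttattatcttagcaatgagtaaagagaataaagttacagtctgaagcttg
Both windows held CTGATTGG, a stretch that contains ATTGG, the reverse complement of CCAAT, with the ATTGG starting at position −48 in H2-Aa and −59 in H2-Eb1 relative to the start. The H2-Eb1 window held a CCAAT as well. CCAAT on either strand was found in 37.4% of 32851 promoter windows, and CTGATTGG on either strand, which was searched after these windows were seen, in 4.10%. Among gate genes with a window, Mrc1, Pf4 and Cd163 and 1 of the 2 windows of Ms4a7 held ATTGG, and none held CTGATTGG. Such a match is a description of letters in a window.

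The H2-high share of gated barcodes was 31.4, 23.7 and 20.3% in Ctrl (Wilson 95% intervals 24.2 to 39.6, 14.7 to 36.0 and 14.6 to 27.5%). In the treated libraries 1 of 5, 3 of 6 and 1 of 4 gated barcodes were H2-high in D0, 1 of 4 and 1 of 3 in D2-1 and D2-2 and 2 of 9 in D2-3. The mean share was 25.1% ± 5.69 (SD, n = 3) in Ctrl, 31.7% ± 16.1 (SD, n = 3) in D0 and 29.2% ± 5.89 (SD, n = 2) in D2. The differences of 6.54 points in D0 (exact permutation test, p = 0.7) and 4.04 points in D2 (exact permutation test, p = 0.4) were within the spread between libraries. Without D0-2 the D0 mean was 22.5% and the difference −2.63 points. The 3 H2-high barcodes of D0-2 had a dendritic cell list sum of 1414 CPM and a classical monocyte list sum of 909 CPM, against 47.1 to 108 CPM and 196 to 606 CPM in H2-high barcodes of Ctrl, and the part of such cells in the share was not tested. With 3 to 6 barcodes per treated library a change in this share was not detectable.

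H2-high and H2-low barcodes of the same control brains differed in far more than the class II genes. H2-high barcodes carried more of the class II chaperones, of monocyte-associated genes, of Il1b and of interferon-stimulated genes. H2-low barcodes carried more of the lectins of the CD209 family, the folate receptor gene Folr2, the iron exporter gene Slc40a1 and the chemokine genes Ccl8 and Ccl24. In edgeR's quasi-likelihood test with the library as a block, 5.24% of 5691 genes were called (3.8% higher and 1.44% lower in H2-high barcodes). Without the genes used by the gate and the split, 292 genes were called, 213 higher and 79 lower, and 283 of them went the same way in all 3 libraries. The count of all calls was 298, against 133 by DESeq2, 196 without Ctrl-3, 190 with a split at each library's median, 55 with 4 or more gate genes and 15 after thinning to 2000 UMIs. Fewer genes could be tested with 4 or more gate genes (4937) and after thinning (821). The log2 differences had a median of −0.02 over all genes.

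Antigen presentation genes that the split did not use were higher in H2-high barcodes. Cd74, the invariant chain that guides class II molecules, stood at 17728, 24894 and 19051 CPM in H2-high and at 151, 165 and 79.6 CPM in H2-low barcodes, a log2 difference of 7.49 (SE 0.21, edgeR adjusted p = 8.82e-19). Ciita, the class II transactivator, stood at 74.8, 135 and 61.4 CPM in H2-high barcodes, from 70 UMIs in all, and had no UMI in H2-low barcodes. Against the limit of 3 UMIs over all H2-low barcodes it was at least 57.9-fold higher (edgeR adjusted p = 3.13e-08). H2-DMa and H2-DMb1, which encode the peptide exchange factor of class II loading, rose by 1.93 (SE 0.15) and 2.33 (SE 0.16). Of 7 tested class II presentation genes 4 were higher and none lower, with a median of 1.93. Among 11 class I presentation genes 6 were higher (H2-K1, H2-D1, Tap1, Psmb8, Psmb9 and Psme1) and none lower, with a median of 0.57.

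Monocyte-associated and inflammatory genes were among the largest differences. Ccr2, the receptor that draws monocytes out of the bone marrow, stood at 288, 606 and 196 CPM in H2-high and at 21.7, 0 and 0 CPM in H2-low barcodes (log2 difference 5.54, SE 0.42, edgeR adjusted p = 1.86e-09). The classical monocyte markers Ly6c2, Chil3 and F10 had no UMI in H2-high barcodes. Il1b, the inflammatory cytokine, stood at 691, 1130.3 and 905 CPM against 78.2, 229 and 95.2 CPM (3.05, SE 0.17, edgeR adjusted p = 6.47e-12). In each of the 3 libraries H2-high barcodes were the higher for both genes. The inflammatory cytokine gene Tnf was lower in H2-high barcodes (−1.32, SE 0.32, edgeR adjusted p = 0.0115). It stood at 41.8, 60.6 and 42.2 CPM in H2-high and at 36.2, 264 and 209 CPM in H2-low barcodes, so Ctrl-1 went the other way. In microglia-poor barcodes Tnf was too low to be tested. It stood there at 59.8, 12.5 and 95.6 CPM in H2-high and at 62.3, 31.9 and 28.7 CPM in H2-low barcodes, so Ctrl-3 went the other way. The remaining genes of the 10 largest rises were Runx3, a transcription factor (4.26), Plbd1, a phospholipase B-like gene (4.16), Mcub, a subunit of the mitochondrial calcium uniporter (3.70), the inhibitory receptor gene Cd72 (3.30), Fxyd5, a regulator of the sodium pump (2.98), and Klra2, a lectin-like receptor (2.95). Of 8 tested genes reported in the literature for H2-high macrophages of dura and choroid plexus, 8 were higher, including Clec12a, Cd52, Axl and Lilra5, with a median of 2.59.

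Of the 10 largest falls in H2-high barcodes 5 were lectin genes. Cd209f stood at 4.40, 0 and 104 CPM in H2-high and at 307, 337 and 237 CPM in H2-low barcodes (−2.91, SE 0.44, edgeR adjusted p = 0.00011; by DESeq2 it was not called, adjusted p = 0.066). Folr2 stood at 24.2, 6.73 and 30.7 CPM against 214, 94.2 and 178 CPM (−2.83, SE 0.29, edgeR adjusted p = 2.68e-07). Both genes were higher in H2-low barcodes of each library, and Ctrl-3 showed the smallest gap for Cd209f. The related lectins Cd209b, Cd209g and Cd209a fell by 4.23, 3.03 and 2.75. The CD209 genes are neighbouring paralogs, and how reads matching several of them were divided bears on the value of each. Also among the 10 largest falls were Egfl7 (−2.72), a secreted protein known from endothelium, the fungal pattern receptor gene Clec4n (−2.49), the eotaxin gene Ccl24 (−2.45), the cytokine gene Tslp (−2.41) and Tbc1d4 (−2.35), a Rab GTPase-activating protein.

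**Figure D5:**
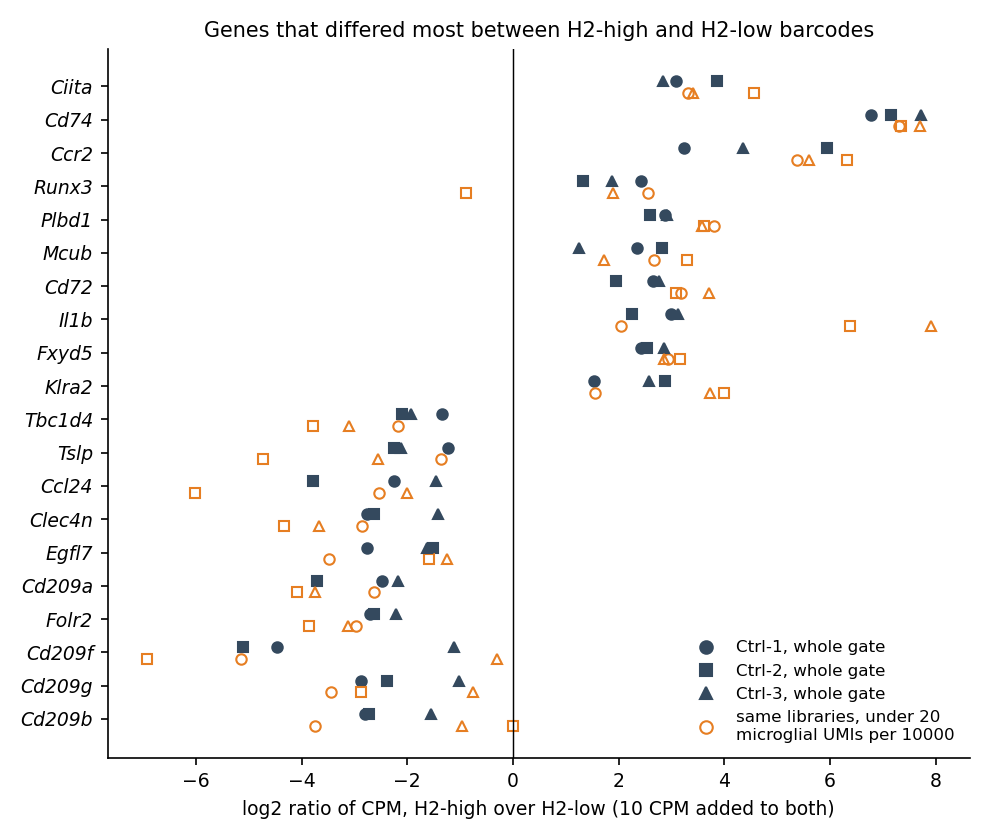
Log2 ratio of CPM between H2-high and H2-low barcodes (x axis, 10 CPM added to both) for the 10 largest rises and 10 largest falls, with filled points for the whole gate and open points for microglia-poor barcodes, 1 shape per control library. The filled points of a gene lie on 1 side of 0, while Runx3 in microglia-poor barcodes of Ctrl-2 lies on the other side and Cd209b there is at 0.

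Gate genes are given for this split as a description, since each barcode needed 3 of the 6. Lyve1 stood at 4.40, 0 and 0 CPM in H2-high and at 135, 61.3 and 84.5 CPM in H2-low barcodes, a log2 difference of −5.28. Cd163 differed by −1.74 and Cbr2 by −1.23. Pf4, Mrc1 and Ms4a7 differed by −0.45, −0.33 and 0.11. Of 19 tested macrophage markers outside the gate 2 were higher (Mgl2 and Fxyd5) and 12 lower (F13a1, Folr2, Stab1, Clec10a, Cd209f, Cd209b, Cd209g, Ltc4s, Gas6, Cd38, Wfdc17 and Clec4n), with a median of −0.84. Mgl2 and Clec10a, 2 lectins of the same family, went opposite ways at 1.35 and −1.77. Of the genes reported for H2-low macrophages of dura and leptomeninges, 5 outside the gate were tested and 5 were lower (Folr2, Cd209f, F13a1, Cd209b and Cd209g).

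Functional groups moved as follows in H2-high against H2-low barcodes. Among 14 interferon-stimulated genes 11 were higher and none lower, with a median of 1.19. Irf7 (2.41), Zbp1 (2.67), Oasl2 (1.69) and Ifi27l2a (1.69) were examples. In microglia-poor barcodes Irf7, Zbp1 and Oasl2 were too low to be tested. Each stood higher in H2-high barcodes of each library there, except Irf7 in Ctrl-3 (13.65 against 28.66 CPM). Immediate-early and stress genes, which also respond to tissue digestion, were higher in 9 of 19 and lower in none, with a median of 0.54, among them Hspa1b (1.46) and Fos (0.85). Of 12 chemokines Ccl12 (1.18), Cxcl2 (1.57) and Cxcl16 (1.36) were higher and Ccl8 (−1.79) and Ccl24 lower, while Ccl3 and Ccl4 were not called at 0.17 each.

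Uptake and degradation genes leaned to the H2-low side. Of 15 scavenger and endocytic receptor genes 3 were higher (Axl, Mgl2 and Cd14) and 6 lower, among them Stab1 (−0.64), Colec12 (−1.91) and Mertk (−0.80), with a median of −0.53. Lysosomal genes were higher in 1 of 16 and lower in 4, among them the protease genes Ctsd (−1.11) and Ctsl (−0.80), with a median of −0.40. Among 8 growth factor and TGF-beta genes 2 were lower, Igf1 (−1.43) and Gas6 (−0.80). The iron exporter gene Slc40a1 fell by 1.24 and the ferritin gene Fth1 rose by 0.61, the only calls in 10 iron and heme genes. Csf1r (−0.29, edgeR adjusted p = 0.28) and Apoe (0.41, adjusted p = 0.16) were not called.

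Microglial genes moved with this split. Of 10 tested microglial markers 6 were lower in H2-high barcodes (P2ry12, Sall1, Siglech, Gpr34 and Slc2a5 among them), with a median of −0.66. Microglia-rich barcodes made up 38 of 87 H2-high and 158 of 241 H2-low barcodes. Without them the libraries held 26, 9 and 14 H2-high and 47, 7 and 29 H2-low barcodes, and 16.2% of 1261 genes were called (7.93% higher and 8.25% lower), or 97 higher and 98 lower without the genes used by gate and split. This subset was chosen after the data were seen and has no p-values here. The 2 sets shared 111 genes, 37.2% of the calls in the whole gate and 54.4% of those in microglia-poor barcodes. Of 200 whole-gate calls tested in both, 191 kept their sign.

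In microglia-poor barcodes most of the named differences were larger. Cd74 differed by 7.62, H2-DMa by 3.93, Il1b by 3.85 and Plbd1 by 4.99. Ccr2 stood at 404, 789 and 478 CPM in H2-high barcodes and had no UMI in H2-low ones. Slc40a1 stood at 19.9, 0 and 13.7 CPM against 200.3, 351 and 325 CPM (−4.01), and Folr2 at 54.8, 12.5 and 68.3 CPM against 499, 319 and 669 CPM (−3.28). Of 16 macrophage markers outside the gate 14 were lower, and of 15 lysosomal genes 10. Ccl3 (1.58) and Ccl4 (2.57) were higher there, Ccl12 (−0.21) and Cxcl2 (1.19) were not called, and Apoe was lower (−0.72), against 0.41 and no call in the whole gate. Of 7 interferon-stimulated genes tested there 2 were higher, Ifi27l2a among them, with a median of 0.23. Ciita, Runx3, Mcub, Cd72, Cd209b, Cd209g, Egfl7, Tslp and Tbc1d4 were too low to be tested in this subset. So were Tnf, Irf7, Zbp1, Oasl2, Axl, Mertk, Tap1 and Cd38.

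The last comparison asked whether the gated cells left under treatment differed from those of control brains. The survivors numbered 3 to 6 per library outside D2-3, with 33271 to 71192 summed UMIs per library against 594821 to 1327905 in Ctrl. A Mrc1 UMI was present in 2 of 5, 6 of 6 and 4 of 4 gated barcodes of D0-1, D0-2 and D0-3, and a Pf4 UMI in 5 of 5, 2 of 6 and 4 of 4. Apoe stood at 27576, 8821 and 22576 CPM in D0 against 26637, 22176 and 23955 CPM in Ctrl. The monocyte receptor Ccr2 had no UMI in the gates of D0-1, D0-3 and D2-1, 35 UMIs in D0-2 and 7 in D2-2. Lyve1 had no UMI in the gates of 5 of 6 treated libraries and 4 UMIs in D0-3.

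In edgeR's quasi-likelihood test of the summed gate, 0% of 1149 genes were called in D0 against Ctrl, with 108 at an unadjusted p under 0.05 and 3 calls by DESeq2. In D2, 0.87% were called (0.261% higher and 0.609% lower). D2 against D0 gave 0%, with 121 genes at an unadjusted p under 0.05 and 5 calls by DESeq2.

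The chemokine gene Ccl8 stood at 68.3, 68.9 and 151 CPM in the gates of Ctrl, at 507, 815 and 415 CPM in D0, at 842 and 519 CPM in D2-1 and D2-2 and at 0 in D2-3. These rest on 81, 41 and 201 UMIs in Ctrl, 19, 58 and 19 in D0, and 28 and 18 in D2-1 and D2-2. The log2 difference was 2.58 in D0 (SE 0.42, edgeR adjusted p = 0.0678) and 2.68 in D2 (SE 0.49, edgeR adjusted p = 0.0324). In microglia-poor barcodes it stood at 84.1, 35.5 and 733 CPM in Ctrl and at 283, 708 and 635 CPM in D0, so that Ctrl-3 lay above the D0 libraries. Serpinb6a, a serine protease inhibitor, stood at 82.7, 70.6 and 105 CPM in Ctrl and at 451 and 606 CPM in D2-1 and D2-2 (2.47, SE 0.42, edgeR adjusted p = 0.0245), with no UMI in D2-3. In microglia-poor control barcodes Serpinb6a stood at 136, 133 and 268 CPM, closer to the gates of D2, which held no microglia-rich barcode. The third gene higher in D2 was the gate gene Ms4a7, given without a test, at 605, 427 and 496 CPM in Ctrl and 1683 and 1644 CPM in D2-1 and D2-2.

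The 7 genes lower in D2 than in Ctrl included 4 microglial markers. The log2 changes were −4.04 for P2ry12 (edgeR adjusted p = 0.0245), −4.18 for Tmem119, −1.99 for Cx3cr1 and −1.77 for Gpr34. P2ry12 stood at 1103, 1759 and 1834 CPM in the gates of Ctrl, of which 44.5 to 71.2% of barcodes were microglia-rich, and at 150 and 57.7 CPM in D2-1 and D2-2, of which none were. The other 3 were Plxdc2 (−3.78), Cyth4 (−2.07), an exchange factor for ARF GTPases, and the leukotriene synthase gene Ltc4s (−2.07). Without the microglia-rich barcodes, without D2-2, or with a term for the Cell Ranger release, no gene was called in D2. Without Ctrl-2, 1 gene was called, without Ctrl-3, 2, and without Ctrl-1, 20.

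The gene lists showed no call in D0. Their medians were 0.02 for 15 macrophage markers outside the gate, 0.33 for 5 class II and 0.40 for 7 class I presentation genes, −0.30 for 10 genes of the CSF1R pathway and macrophage transcription factors and −1.02 for 10 microglial markers, against 0.02 for all genes. In D2 the medians were 0.11 for the 15 macrophage markers, with Ltc4s the only call, and −1.91 for the 10 microglial markers, 4 of them lower. H2-D1, a class I heavy chain, stood at 1415, 1444 and 1262 CPM in Ctrl and at 2720, 2922 and 2467 CPM in D0, and was not called (0.95, edgeR adjusted p = 0.303). In microglia-poor barcodes the groups overlapped for H2-D1, with 1924, 2610.0 and 2055 CPM in Ctrl and 3609, 1931 and 3212 CPM in D0. The cyclooxygenase gene Ptgs1 stood at 294, 403 and 448 CPM in Ctrl and at 160, 126 and 153 CPM in D0 (−1.44, edgeR adjusted p = 0.299).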

How the data were processed

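The values were deposited UMI counts per gene and barcode, made by the authors with Cell Ranger (3.1.0 in the labels, 3.0.2 in the headers of 6 libraries and 3.1.0 in Ctrl-2, Ctrl-3 and D2-3) against mm10 (GRCm38). Barcodes were filtered and gated as stated, with no doublet caller. The gate, the gene lists and the tests were chosen with earlier results of these data known. Raw counts were summed per library and class and tested with the quasi-likelihood test of edgeR 4.0.16 (TMM, filterByExpr, Benjamini-Hochberg, 0.05; all 3 groups in 1 fit for conditions, the Ctrl libraries for the H2 split) in R 4.3.3. DESeq2 1.42.0 was an alternative. Libraries were the replicates. D2-3, left out by the study, was left out of group tests. A planned minimum of 20 gated cells per library was met by no treated library, so those tests were run without a minimum. H2-high and H2-low sums needed at least 10 cells of both, 4 in the microglia-poor subset.

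Genes were named by rule, as the 10 largest rises and falls by log2 fold change, taken from called genes of 20 or more CPM that went the same way in each library (or did not overlap between groups), or the 5 smallest p where fewer than 5 were called, plus the called and most abundant members of each list. In the condition tests the called genes and examples from the 5 smallest p are given. No gene is named from the test of macrophage against microglial response, whose treated sums rest on 3 to 6 barcodes per library. Apoe, Csf1r, Ccr2, H2-D1 and C1qa were given with their values in view. Microglia-poor barcodes were defined after the data were seen. Libraries with the same number did not deviate together in gated sums (r from −0.163 to 0.391 over 7 pairs), but did in sums over all kept barcodes (0.139 to 0.737). The 36 pairs of libraries shared 1 to 8 barcodes, and none was gated in both. The steps were tested on simulated data. A few list members are not reported here by name.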

Additional observations from a re-analysis of the deposited data

Results flagged for a closer look

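Of the control barcodes that passed the macrophage gate when no upper limit on UMIs was set, 11.04% in Ctrl-1, 56.3% in Ctrl-2 and 39.6% in Ctrl-3 lay above 20000 UMIs. They numbered 17, 76 and 97, and enter none of the values except those given without the upper limit. With them the gated share of barcodes was 3.47, 4.48 and 5.86% in Ctrl.

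The response of gated macrophages was set against that of microglia by an interaction term in edgeR. Of 11996 genes tested, it was past the threshold for 197 in D0 (16 higher and 181 lower) and for 147 in D2 (3 and 144). The median log2 value over all genes tested was itself below 0, at −0.59 in D0 and −1.14 in D2. The treated macrophage sums rest on 3 to 6 barcodes per library, and no gene is read from these counts.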

How the results depend on the processing

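The treated gates held 3 to 6 barcodes per library, which limits each test of gated sums between conditions. On simulated data, the D0 test recovered 58.0% of 2-fold and 96.6% of 4-fold changes among the genes tested. The D2 test recovered 27.8 and 79.5%. The simulation drew each library from the pooled control profile with the same spread for each gene, and changed abundant genes only. It left out differences between the few barcodes of a treated library, so these shares do not measure the power of the real tests. The fall of the gated share kept its direction in each alternative run, and leaving out 1 library moved the difference between −3.48 and −2.62 points in D0 and between −3.49 and −2.64 in D2. Over the counts and shares, 112 values under other settings stayed near the main value, 69 moved and 6 reversed, and the causes were not tested. Of 112 named genes in the H2 comparison, 82 were called. Under other settings 1314 values kept their call or lack of one, 440 lost the call and 39 gained it. A further 12, of genes called in the main comparison, reversed. Sign changes of genes not called there were not counted as reversed. Apoe was such a gene, at 0.41 in the whole gate and −0.72 in microglia-poor barcodes. Genes too low for a setting gave no value there.

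The difference in H2-high share reversed with 4 or more gate genes (−4.67 points in D0 and −15.8 in D2), without cells with 3 or more microglial genes (−8.48 in D2) and without microglia-rich barcodes (−9.81 in D2). Without D0-2 it was −2.63 and without D2-2 −0.129, with upper values of 12.4 and 8.20 when another library was left out. The D0 difference was 22.1 points without cells with 3 or more microglial genes (exact permutation test, p = 0.1, the smallest allowed). After thinning it was 28.2 points (exact permutation test, p = 0.4), from 2 gated barcodes per D0 library. Without microglia-rich barcodes it was 5.46 points in D0.

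Genes called in gated sums of D0 numbered 3 by DESeq2, 104 without the filter on low counts, 1 without microglia-rich barcodes, 11 without the upper UMI limit and 1 with the 2 groups alone, and 0 to 1 when 1 library was left out. In D2 they numbered 43 by DESeq2, 77 without the filter, 2 with 4 or more gate genes, 33 without the upper limit, 44 with D2-3 and 41 with the 2 groups alone. They numbered 0 without cells with 3 or more microglial genes, without microglia-rich barcodes, after thinning and with the Cell Ranger release as a term, and 0 to 20 when 1 library was left out. D2 against D0 gave 5 by DESeq2, 30 without the filter and 0 to 1 when 1 library was left out.

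The interaction with microglia in D0 gave 6 genes by DESeq2, 70 with upper-quartile scaling, 97 without the filter, 65 without cells with 3 or more microglial genes, 99 with D2-3, 99 with the release term and 46 to 326 when 1 library was left out. In D2 it gave 5, 80, 89, 56, 401 and 81 in the same order, 89 without microglia-rich barcodes, 57 after thinning and 29 to 234 when 1 library was left out.

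H2-high against H2-low gave 133 genes by DESeq2, 78 without microglia-rich barcodes, 55 with 4 or more gate genes, 8 without cells with 3 or more microglial genes, 15 after thinning and 190 with a split at each library's median. With at least 4 cells of both classes these were 204 without microglia-rich barcodes, 52 with 4 or more gate genes, 137 without cells with 3 or more microglial genes and 15 after thinning. Leaving out 1 library gave 196 (without Ctrl-3) to 301. Among genes called in the whole gate, the log2 value of Ccl12 reversed without microglia-rich barcodes (−0.16, and −0.21 with at least 4 cells). Ier2 reversed without cells with 3 or more microglial genes (−0.10). Ifitm3 reversed in that setting (−0.31 and −0.21) and after thinning (−0.47 and −0.56). Psmb8 (−0.020) and Psmb9 (−0.20) reversed after thinning. Slfn2 reversed without cells with 3 or more microglial genes (−0.071) and without microglia-rich barcodes (−0.066). Tnf reversed at the median split (0.74). Genes not called in the whole gate changed sign as well, among them Apoe, Tgfbr1 and Bst2. In microglia-poor barcodes these stood at −0.72, 0.92 and −0.27, against 0.41, −0.44 and 0.53 in the whole gate.

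In sums of all kept barcodes, 7.4% of all genes were lower in D0 and 7.83% in D2. Of the 7 macrophage markers outside the gate, Cd209f, Stab1, Maf and Dab2 were lower in D0 and Cd209f, Stab1 and Maf in D2. Under at least 1 other setting the calls of Stab1, Maf and Dab2 in D0 and of Maf in D2 were lost. The 6 gate genes are not counted here, since their UMIs chose the cells.

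With the replicate number as a block, 1 gene was called in gated sums of D0, 9 in D2 and 0 between them. In the interaction 52 were called in D0 and 85 in D2. In sums of all kept barcodes the block changed no call of Cd209f, Stab1, Maf, Dab2, Folr2, F13a1 or Clec10a in D0 or D2. Without the library as a block the H2 comparison gave 88 genes.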
